A study of Caenorhabditis elegans with 2 samples.

Results

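The genome of *Caenorhabditis elegans* encodes 86 proteins whose genes are named as hedgehog-related or patched-related, out of 19973 protein-coding genes on the nuclear chromosomes of the WBcel235 annotation. They were taken by name alone, namely every coding gene called wrt-, grd-, grl-, hog-, qua-, ptr-, ptc- or ptd- with a number. Of these, 59 are ligand-like (10 wrt, 16 grd, 31 grl, *hog-1* and *qua-1*) and 27 are patched-related (*ptc-1*, *ptc-3*, 24 ptr and *ptd-2*). Their surroundings were searched for regions bound by ELT-3, an epidermal transcription factor of the GATA family, in a ChIP-seq experiment (chromatin immunoprecipitation followed by sequencing). The material was whole L3 larvae of strain OP75, genotype unc-119(ed3) III; wgIs75, labelled as pooled male and female, in which a transgene makes ELT-3 with a GFP and FLAG tag at its C terminus. The study has 2 biological replicates of this 1 group. With no contrasting condition, the families were set beside each other and beside all coding genes, and each value was looked up in both replicates. The labels do not say which sequences drive the transgene, and whole animals do not show in which cells a region was bound.

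Nematode hedgehog-related proteins are secreted proteins whose amino-terminal domains (the warthog, groundhog and ground-like domains) differ from that of hedgehog itself, and some of them, such as those of *hog-1*, *qua-1* and part of the wrt and grd genes, also carry the self-cleaving Hog domain of hedgehog. Worms have no clear counterpart of the signalling protein Smoothened, while membrane proteins with a sterol-sensing domain related to Patched, the hedgehog receptor of flies and vertebrates, form the large ptr family beside *ptc-1* and *ptc-3*. Many genes of both families are known to be active in the epidermis, and the loss of several, *qua-1* and *ptc-3* among them, disturbs molting.

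Each gene was given a window from 2000 bases upstream of its most upstream coding start to its end. A list called on both replicates pooled holds 30000 regions of 340 bases, weak ones included, and for each the signal deposited by the authors. The 774 strongest of them (signal 29.5 to 133.1) make up the list that passed a threshold on the irreproducible discovery rate (IDR), called IDR regions below. By its label the pooled list holds peaks and background, so a pooled region is not by itself shown to be bound. Summits of both replicates lay in 33.7% of pooled regions and 97.8% of IDR regions. They lay in 40 of the 73 distinct strongest regions of members (54.8%), against 44.7% of those of all coding genes. What 1 unit of signal stands for is not stated, and no read counts were used, so the depth is unknown.

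The 5 members with an IDR region in the window were *ptr-12*, *wrt-1*, *ptr-25*, *ptr-13* and *ptr-15*. To show what lay under the summits, the sequences within 100 bases of them are given for 4 of them, from the plus strand of WBcel235, 5′ to 3′, in lower case. Capitals mark AGATAA and its variant AGATAG as well as TGATAA and its variant TGATAG on either strand, the spellings that GATA factors recognise.
wrt-1 (chrII:7529119-7529319): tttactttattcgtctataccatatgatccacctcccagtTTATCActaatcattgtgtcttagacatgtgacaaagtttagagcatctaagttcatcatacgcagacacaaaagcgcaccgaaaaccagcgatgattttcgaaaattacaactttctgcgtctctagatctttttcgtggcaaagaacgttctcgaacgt
ptr-25 (chrIII:10489107-10489307): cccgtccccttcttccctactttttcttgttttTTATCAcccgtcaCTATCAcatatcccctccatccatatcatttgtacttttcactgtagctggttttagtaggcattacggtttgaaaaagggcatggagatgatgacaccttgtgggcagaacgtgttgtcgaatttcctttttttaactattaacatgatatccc
ptr-13 (chrII:11162482-11162680, shortened at its left end, where the annotated 5′ UTR lies): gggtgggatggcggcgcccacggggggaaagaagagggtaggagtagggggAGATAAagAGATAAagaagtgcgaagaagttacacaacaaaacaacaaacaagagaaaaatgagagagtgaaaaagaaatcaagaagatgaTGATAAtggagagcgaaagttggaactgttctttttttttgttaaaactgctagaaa
ptr-15 (chrV:6970283-6970483): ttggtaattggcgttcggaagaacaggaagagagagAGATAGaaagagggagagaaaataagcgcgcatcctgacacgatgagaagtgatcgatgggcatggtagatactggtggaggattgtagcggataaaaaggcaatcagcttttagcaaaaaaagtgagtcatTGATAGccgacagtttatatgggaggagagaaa
Shown for contrast are the highest member below the IDR threshold, *ptr-14*, which had none of these spellings, and *hog-1*, which had 3 of them but a lower signal.
ptr-14 (chrIV:10614917-10615117): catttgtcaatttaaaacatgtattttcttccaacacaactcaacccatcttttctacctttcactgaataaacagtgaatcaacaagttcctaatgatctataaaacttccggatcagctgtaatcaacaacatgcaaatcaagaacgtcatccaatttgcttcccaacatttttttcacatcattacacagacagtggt
hog-1 (chrX:5856005-5856205): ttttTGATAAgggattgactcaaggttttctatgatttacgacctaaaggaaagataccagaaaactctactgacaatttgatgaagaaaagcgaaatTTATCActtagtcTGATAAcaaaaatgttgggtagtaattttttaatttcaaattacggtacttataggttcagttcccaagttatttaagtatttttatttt

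Among the ligand-like genes, 1 of 59 had an IDR region in the window (1.69%, exact 95% binomial interval 0.0429 to 9.09, counting error only). Among the patched-related genes, 4 of 27 had one (14.8%, 4.19 to 33.7). Over all coding genes the share was 3.49% (697 genes). The intervals describe counting error and are no test against that share, which was itself higher for genes with longer windows. Windows differed in length between the families, with a median of 3784 bases for ligand-like, 8014 for patched-related and 4024 for all coding genes. A longer window holds more regions, and the length of the window cannot be fully told apart from the family, since none of the patched-related genes had a window under 5000 bases, against 45 of the 59 ligand-like genes. In windows of 5000 to 10000 bases, 0 of 12 ligand-like and 3 of 19 patched-related genes had an IDR region, beside 4.49% of the 4918 coding genes in that range. In shorter windows it was 1 of 45 ligand-like genes, beside 2.66% of coding genes. In longer ones it was 0 of 2 ligand-like and 1 of 8 patched-related genes, beside 7.72%. The length classes were chosen after the values were seen. No test was made of the difference between the families, since genes are not replicates. In promoter windows, from 1000 bases upstream to 200 downstream of a start, 0 ligand-like and 2 patched-related genes (*ptr-13* and *ptr-15*) had an IDR region, beside 1.94% of coding genes. With each IDR region given to the nearest coding start within 5000 bases, 0 ligand-like and 4 patched-related genes had one (*ptc-3*, *ptr-13*, *ptr-15* and *ptr-25*), beside 3.2% of coding genes.

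**Figure D1:**
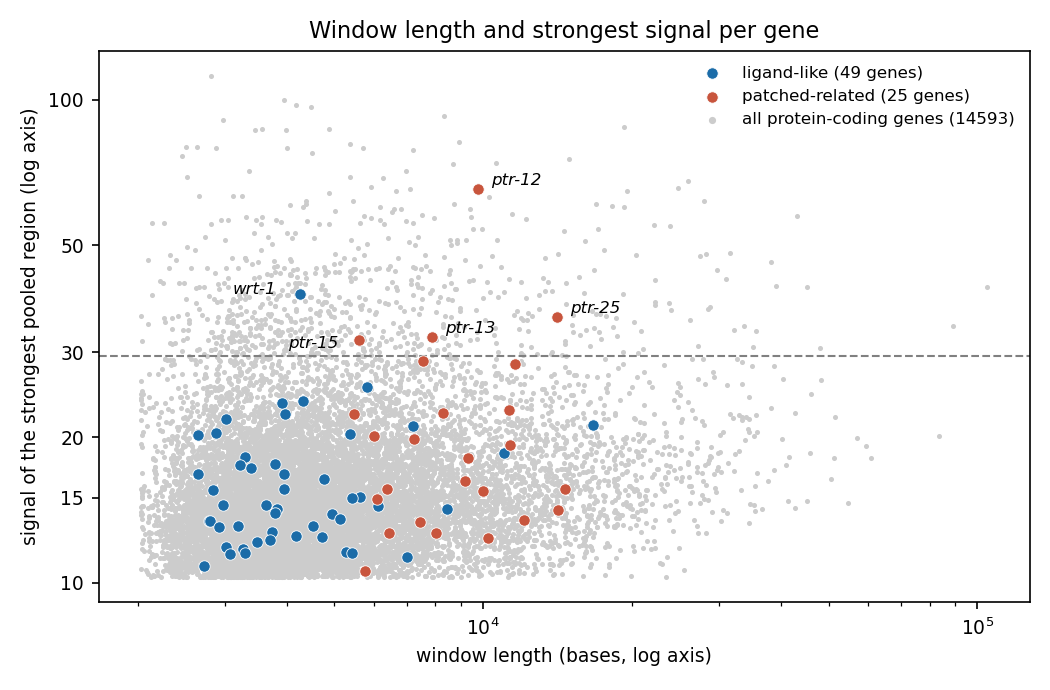
Length of the gene window in bases (x, log axis) against the signal of the strongest pooled region in it (y, log axis), for 49 ligand-like genes, 25 patched-related genes and all 14593 coding genes with a region. The dashed line is the weakest IDR region, at 29.5, and the 5 labelled members lie above it, the patched-related genes towards the longer windows.

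The strongest pooled region of the 49 ligand-like genes that had one ranged from 10.8 to 39.6 with a median signal of 14.5, which is also the median over the 14593 coding genes with a region. In the 25 patched-related genes with a region it ranged from 10.6 to 65.3 with a median of 18.2. In windows of 5000 to 10000 bases the median was 18.2 in patched-related and 14.4 in ligand-like genes, against 15.1 in all coding genes. In longer windows it was 17.5 in the 8 patched-related genes, against 16.2 in all coding genes, so that gap was smaller there. The 2 ligand-like genes with such windows had a median of 19.9, above that of the patched-related genes. Above the median of all coding genes lay 25 of the 49 and 18 of the 25. Regions numbered 4.07 per 10 kb of window in ligand-like and 3.92 in patched-related genes, against 3.12 over all coding genes. At least 1 pooled region was found for 83.1% of ligand-like and 92.6% of patched-related genes, against 73.1% of all coding genes. At matched length this gap was smaller for patched-related genes, with 17 of 19 (89.5%) against 84.8% of all coding genes in windows of 5000 to 10000 bases, and 8 of 8 against 93.9% in longer ones. For ligand-like genes it was 80.0% against 66.5% in windows under 5000 bases. In windows of 5000 to 10000 bases it was 91.7% against 84.8%, and in longer ones 2 of 2 against 93.9%.

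**Figure D2:**
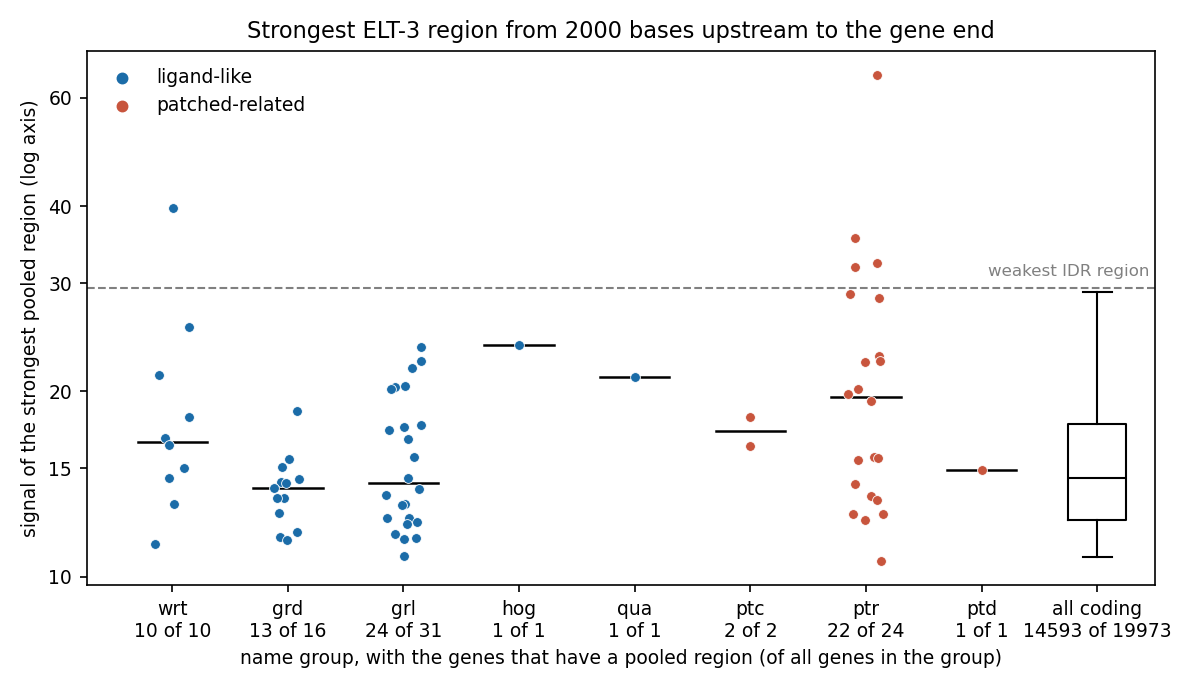
Signal of the strongest pooled region in the window (y, log axis) by name group, 1 point a gene, with the median as a bar, and all coding genes as a box (quartiles and median, whiskers at the 5th and 95th percentiles). One wrt gene and 4 ptr genes lie above the weakest IDR region (dashed, 29.5), while the highest grd and grl genes reach 18.6 and 23.6.

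All 10 warthog genes had a pooled region, with a median strongest signal of 16.6. *wrt-1* led them. Its IDR region at chrII:7529049-7529388 had a pooled signal of 39.6, with 18.9 in replicate 1 (rank 738 of 30000) and 20.2 in replicate 2 (rank 165). It was thus high in both lists. The summit lay 1777 bases upstream of the *wrt-1* start and 424 bases from the start of ZK1290.5, so another gene is the nearer one, and with windows from 1000 bases upstream no ligand-like gene had an IDR region. The sequence above holds a single TGATAA, 60 bases left of the summit in the printed strand. A second region of *wrt-1*, in its 5′ UTR, had a signal of 26.0 (15.1 in replicate 1 and 10.9 in replicate 2) and 2 GATA spellings, below the IDR threshold at rank 1135.

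*wrt-3* came next, at 25.4 pooled, with 14.8 in replicate 1 and 9.0 in replicate 2, and its region lay 281 bases upstream within *cng-3* and over the snoRNA gene F38E11.14. A stronger replicate 1 region of *wrt-3* (19.6, rank 652) had its summit in no pooled region. *wrt-9*, whose window of 16684 bases is the longest of the families, had 10 regions, the best at 21.3. *wrt-10*, which lies next to *wrt-1* on the other strand, reached 18.2, in its coding sequence, with a summit of replicate 2 (12.3) and none of replicate 1 in the region. The remaining wrt genes had 16.8 or less, down to 11.3 at *wrt-4*.

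None of the 16 groundhog genes had an IDR region (a count of 0 allows up to 18.8% by 3 counts and 20.6% by the exact interval), and neither did any of the 31 ground-like genes (9.68% and 11.2%). These limits lie above the 3.49% of all coding genes. The highest grd gene was *grd-11*, at 18.6, with 9.30 in replicate 1 (rank 9812) and 10.1 in replicate 2 (rank 2155). Its region fell in coding sequence. Neighbours in tandem shared signal, since *grd-3* and *grd-10* have the same strongest region (13.4), which lies in the 3′ UTR of *grd-3*. The highest grl gene was *grl-5*, at 23.6, 556 bases upstream. Its replicates disagreed, with 19.9 (rank 624) in replicate 1 and no replicate 2 summit in the region, where the best replicate 2 region of the whole window had 5.19 (rank 20799). *grl-17* (22.4), *grl-11* (21.8), *grl-22* (20.4), *grl-15* (20.3) and *grl-19* (20.2) followed, named after their values were seen. *grl-11* had no replicate 2 region in its window, while the regions of the others held summits of both replicates. At *grl-17* the nearest coding start was that of *slrp-1*, 445 bases away.

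Both ligand-like groups with a single member stayed below the IDR threshold. *hog-1* had 23.8, with 12.6 in replicate 1 (rank 3140) and 10.4 in replicate 2 (rank 1883), 1842 bases upstream of its start. Its 3 GATA spellings were all TGATAA, 2 of them within 50 bases of the summit. *qua-1*, needed for molting, had 21.1, with 14.3 and 8.76 in replicates 1 and 2, in coding sequence, and none of the spellings within 100 bases of the summit. By strongest signal they stood at 1306 and 1950 among 14593 coding genes with a region.

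The patched-related genes included the strongest member. *ptr-12* had an IDR region at chrI:2587673-2588012 with a pooled signal of 65.3 (rank 40), 38.4 in replicate 1 (rank 49) and 25.9 in replicate 2 (rank 63). Both replicates placed the summit at the same base. It stood 34th among the coding genes by strongest signal. The summit lay in an intron, 7451 bases downstream of the start and close to the end of the gene, and the nearest coding start was that of *fbp-1*, 1719 bases away. Within 100 bases were 3 GATA spellings, 2 of them TGATAA. The other 6 regions of the window had 17.8 or less.

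*ptr-25* had an IDR region in an intron, 1083 bases downstream of its start (chrIII:10489037-10489376), with a pooled signal of 35.5. The replicates differed, with 27.2 in replicate 1 (rank 233) and 8.54 in replicate 2 (rank 4124). In replicate 2 the strongest region of the gene was another one, 1390 bases upstream by the pooled summit, with 11.7 there, 9.54 in replicate 1 and 23.3 pooled.

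*ptr-13* and *ptr-15* were the members just inside the threshold and the ones with a summit close upstream of the start. At *ptr-13* the summit lay 99 bases upstream (chrII:11162410-11162749), with 32.3 pooled, 19.2 in replicate 1 (rank 690) and 11.5 in replicate 2 (rank 1320), and no other coding gene had it in its window. A second region of *ptr-13*, in an intron, had 28.9 pooled, 15.9 in replicate 1 and 14.2 in replicate 2 (rank 613), so that the replicates differed in which of the regions was stronger. This second region held none of the GATA spellings near its summit. At *ptr-15* the summit lay 383 bases upstream (chrV:6970213-6970552), with 31.8 pooled, 22.1 in replicate 1 (rank 451) and 12.1 in replicate 2 (rank 1097), and it also fell in the window of *srx-59*. The printed sequences of *ptr-13* and *ptr-15* both contain GAGAGA, searched on both strands after the values were seen. It was present in 11.0% of the 73 distinct best regions of members, 14.6% of all pooled regions and 34.4% of IDR regions.

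Just outside the threshold were *ptr-14* and *ptr-11*. *ptr-14* had 28.8 pooled, with 15.9 in replicate 1 (rank 1305) and 11.9 in replicate 2 (rank 1172). *ptr-11* had 28.4 pooled, with 8.97 in replicate 1 (rank 11221) and 13.4 in replicate 2 (rank 760). *ptr-14* had its best region 410 bases upstream of its start, with no GATA spelling within 100 bases of the summit, and its second region, in an intron, had 23.4 and 2 of them. *ptr-11* had its best region 1432 bases upstream, 28 bases from the start of *cest-27*, and another in an intron with 25.6 pooled, 19.5 in replicate 1 (rank 661) and 7.15 in replicate 2. Either replicate alone therefore placed *ptr-11* among its 774 strongest regions, but at different positions.

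**Figure D3:**
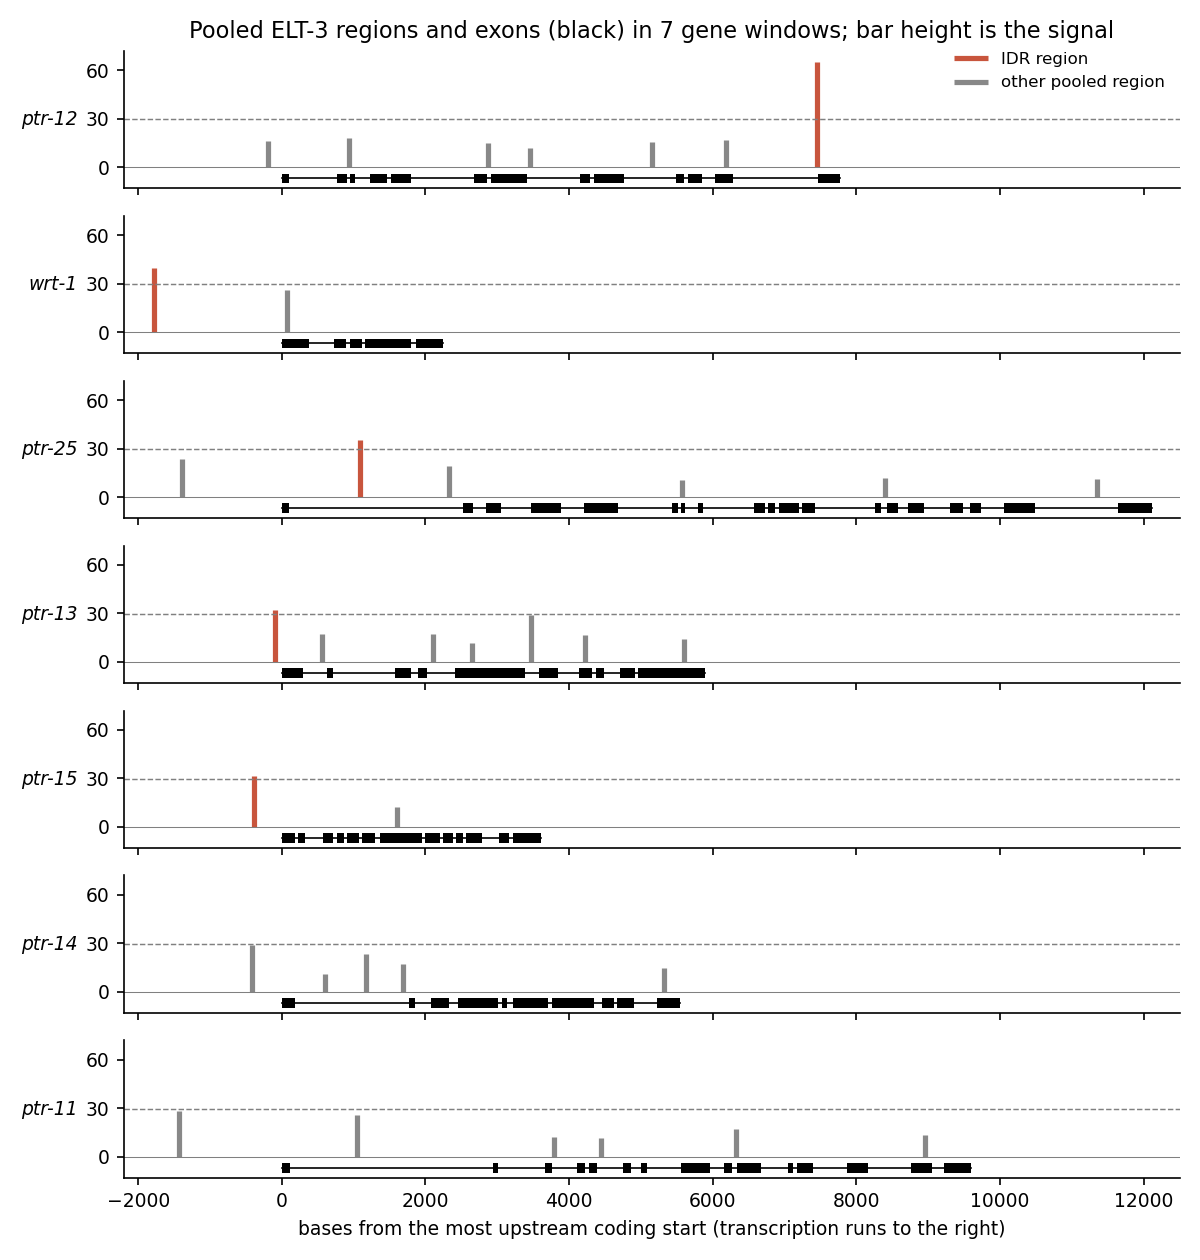
Pooled regions in the windows of 7 members, with the signal as bar height and the distance in bases from the most upstream coding start on the x axis; black boxes are exons and the dashed line is the weakest IDR region. The region of ptr-12 lies at the end of the gene, that of wrt-1 far upstream, those of ptr-13 and ptr-15 at the start, and the best regions of ptr-14 and ptr-11 end just under the line.

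The 2 patched genes proper had no IDR region in the window. *ptc-1*, known from the germ line, reached 18.2 (10.4 in replicate 1 and 7.09 in replicate 2), 412 bases upstream. *ptc-3*, known from the epidermis, reached 16.3 (12.1 in replicate 1 and no replicate 2 summit). Farther upstream, however, the *ptc-3* start was the nearest coding start to 2 IDR regions. One, at chrII:2857651-2857990, lay 5228 bases upstream and had 65.5 pooled (rank 39), 41.2 in replicate 1 (rank 38) and 23.0 in replicate 2 (rank 105), a level like that of *ptr-12*. The other, at chrII:2856178-2856517, lay 3755 bases upstream and had 30.4, 20.4 and 10.9. Both held 2 GATA spellings, and neither summit was inside another coding gene. Distances to gene ends were not taken, so another gene may lie nearer than *ptc-3*. The 2 regions lie outside the window rule and are not in the count of 4 of 27. *ptd-2* had 14.9 pooled, with 10.8 in replicate 1 and no replicate 2 summit in the region.

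Other ptr genes spread over the whole range of signals. *ptr-16* (22.8, with 4 GATA spellings, 1246 bases into the gene in an intron), *ptr-23* (22.4) and *ptr-2* (22.4) came after *ptr-11*. *ptr-1* was lowest at 10.6. These genes were named after their values were seen. The region of *ptr-2* held no replicate 2 summit and that of *ptr-1* no replicate 1 summit, while those of *ptr-16* and *ptr-23* held both. *ptr-3* and *ptr-10* had no pooled region at all.

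A pooled region was found for 86.0% of the 86 members, against 73.1% of all coding genes, and 12 members had none. They were *ptr-3*, *ptr-10*, *grd-6*, *grd-7*, *grd-13*, *grl-7*, *grl-18*, *grl-24*, *grl-27*, *grl-28*, *grl-29* and *grl-30*. For 9 of them at least 1 replicate list held a region, at rank 6568 (*ptr-3*, replicate 2) or weaker, and *grl-7*, *grl-24* and *grl-27* had none in any list. The pooled list ends at a signal of 10.3, so these windows held no region above that value and are not shown to be unbound.

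By position in the gene, in patched-related genes the summit was upstream in 10 of 25, in an intron in 11 (44.0%) and in coding sequence in 4. In ligand-like genes it was upstream in 22 of 49, in coding sequence in 17 (34.7%) and in an intron in 5 (10.2%), and UTRs held the remaining 5. Over all coding genes 20.4% lay in introns, 23.4% in coding sequence and 50.6% upstream. Intron length was not taken into account, and no test was made. The best region was in no other coding gene's window for 20 of 25 patched-related genes (80.0%) and 25 of 49 ligand-like genes (51.0%), against 50.4% of all coding genes with a region. The nearest coding start was the member's own for 20 patched-related genes (80.0%) and 37 ligand-like genes (75.5%), against 69.9% of all coding genes with a region. Window length and the spacing of genes were not matched in these shares.

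Within 100 bases of the summit, windows of 201 bases, the GATA spellings were present in 18 of 48 distinct best regions of ligand-like genes (37.5%, interval 24.0 to 52.6) and 11 of 25 of patched-related genes (44.0%, 24.4 to 65.1). All 30000 pooled regions held them in 41.2% and the IDR regions in 74.3%. All 5 IDR regions in member windows held at least 1, and 4 of these held TGATAA, the exception being *ptr-15*. Over the whole IDR list TGATAA was present in 58.1% of regions. Within 50 bases of the summit, only *ptr-12* and *ptr-13* of the 5 held any of the GATA spellings, against 56.5% of all IDR regions. GAGACG, a sequence frequent at IDR regions in general (18.2%, against 7.36% of pooled regions), was present at *wrt-1* alone of the 5. ACGCAG, also searched, was present at *ptr-12* and *wrt-1* (12.8% of IDR regions, against 5.29% of pooled regions). These letters describe the windows and do not show which bases were bound.

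Of the 5 IDR regions in member windows, 4 ranked higher in replicate 1 than in replicate 2, *wrt-1* being the exception. All 5 IDR regions contained a summit among the 774 strongest of replicate 1, and 2 of them, at *ptr-12* and *wrt-1*, one among the 774 strongest of replicate 2. Over the whole IDR list these shares were 76.6% and 61.5%. By gene, 8 members had a replicate 1 region that strong (*ptr-12*, *ptr-25*, *ptr-15*, *grl-5*, *wrt-3*, *ptr-11*, *ptr-13* and *wrt-1*), against 3.5% of coding genes. In replicate 2 there were 4 (*ptr-12*, *wrt-1*, *ptr-13* and *ptr-11*), against 3.6%, and all 4 were among the 8, beside 1.79% of coding genes that were that strong in both. The lists need not share a scale, so a signal in 1 replicate is not to be read against that in the other. Ranks are given for part of the named regions only. In replicate 1 the median strongest signal was 9.62 in ligand-like, 11.8 in patched-related and 9.18 in all coding genes, and in replicate 2 it was 7.14, 7.55 and 6.72. Both replicates gave patched-related genes the higher median, by little in replicate 2. Their windows were longer, and these medians were not matched for window length.

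**Figure D4:**
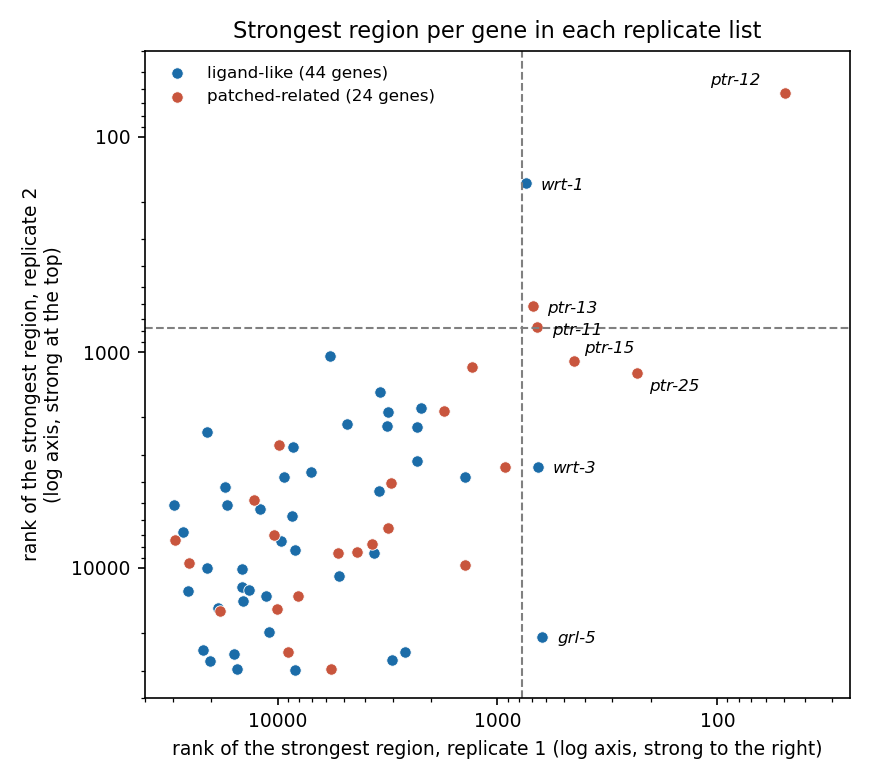
Rank of the strongest region in the window in replicate 1 (x) and replicate 2 (y), on log axes with strong regions to the right and at the top, for the 44 ligand-like and 24 patched-related genes with a region in both lists. Dashed lines mark rank 774; ptr-12 lies at ranks 49 and 63, and grl-5, wrt-3, ptr-15 and ptr-25 are past the line in replicate 1 but not in replicate 2.

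Among 10 other genes of the pathway or with related sterol-sensing proteins, 1 had an IDR region in the window, against 3.49% of all coding genes. Their windows were longer, with a median of 8650 bases against 4024. In windows of 5000 to 10000 bases the share of coding genes was 4.49%. The gene with the IDR region was *ncr-2*, a homologue of the cholesterol transporter NPC1, with 57.1 pooled, 34.1 in replicate 1 and 20.4 in replicate 2. That summit lies in an intron of *ncr-2* and inside the collagen gene *col-91*, 95 bases from the *col-91* start. *lrp-1*, a megalin homologue needed for molting, had 25.4, *daf-6*, a patched-related protein of glial tubes, had 20.9, and *che-14*, a Dispatched homologue, had 17.1. *tra-1*, the Gli homologue that acts in sex determination, had 15.9 in an intron. That region had 6.91 in replicate 1 (rank 23965) and 7.30 in replicate 2 (rank 7619). *hhat-2*, a homologue of the hedgehog acyltransferase, had no region.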

How the data were processed

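ELT-3 was profiled by ChIP-seq in 2 biological replicates of whole L3 larvae, fragmented by sonication per the labels. The authors deposited, per the labels and file descriptions, region lists on ce11 with a signal value per region: 1 list per replicate, 1 on both pooled and 1 IDR list derived from these. Aligner, peak caller, IDR threshold and signal scale: not given in the sources used here. Replicate lists were 344 and 336 bases wide per region. Lists on ce10 were not used. Only the signal and position of each region were used.

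Positions are 1-based on ce11, whose coordinates the WBcel235 genome and Ensembl release 115 share. GATA spellings are AGATAA and its variant AGATAG as well as TGATAA and its variant TGATAG. The strongest region with a summit in each gene window, IDR membership, replicate summits inside it, gene features and GATA spellings (both strands) were computed with Python 3.11.15, pandas 2.3.3, NumPy 2.4.6 and SciPy 1.17.1, figures with matplotlib 3.10.9. Intervals are exact Clopper-Pearson at 95%. Placement and spelling searches were checked on simulated regions. Genes named are all members with an IDR region, the best of each name group, members strong in a replicate, the 3 nearest below the threshold, those with no region, 5 well-known members, and *tra-1* with any other pathway gene holding an IDR region; *wrt-4*, *wrt-9*, *lrp-1*, *daf-6*, *che-14* and *hhat-2* were named after their values were seen. Alternatives were other window starts, promoter windows from 1000 bases upstream to 200 downstream, nearest-start assignment, overlap of 1 base, the 387 strongest IDR regions, each replicate alone and other motif windows. The members and lists were chosen with earlier results of these data known. No test across genes was made.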

Additional observations from a re-analysis of the deposited data

How the results depend on the processing

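The ligand-like share with an IDR region, 1.69% (1 of 59, *wrt-1*), was 0% with windows from 1000 or 500 bases upstream (all coding genes 2.74% and 2.23%), with promoter windows, with nearest starts and, a choice added after the data were seen, with windows of 5000 to 10000 bases only. With a single replicate the IDR list was not used. Genes were counted instead when their strongest region was among the strongest of that replicate's list, as many as there are IDR regions. Counted so, the ligand-like share was 1.69% to 5.08% (all coding genes 3.5% in replicate 1 and 3.6% in replicate 2). With overlap in place of summits the ligand-like share with an IDR region was 3.39% (*grl-20* added), near the 3.76% of all coding genes. The patched-related share, 14.8%, was 3.7% (1 gene, *ptr-12*) with the 387 strongest IDR regions, where the ligand-like share was 1.69% (1 gene, *wrt-1*) and that of all coding genes 1.73%. Counted by the strongest regions of a single replicate, without the IDR list, the patched-related share ranged from 11.1% to 18.5%. The patched-related share with an IDR region was 7.41% with promoter windows (*ptr-13* and *ptr-15*), against 1.94% of all coding genes. With nearest starts it was 14.8% again, with *ptc-3* in place of *ptr-12*, against 3.2% of all coding genes.

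The median strongest signal of patched-related genes was 14.9 with promoter windows, where 14 of 27 had a region, against 14.3 for ligand-like genes, so the gap between the families was smaller there. With single replicates the medians were 7.55 to 11.8 in patched-related and 7.14 to 9.62 in ligand-like genes, on the scales of those lists. GATA spellings, present at 39.2% of the best regions of 74 members, were found at 23.0% within 50 bases, at 58.1% in whole regions and at 20.3% as TGATAA alone. Over all pooled regions these shares were 41.2%, 23.6%, 58.0% and 21.9%, so the member shares were close to them. No paired analysis was possible because there is 1 group of samples. Depth is unknown, and with 59 and 27 genes the precision of the shares is set by those numbers.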
